A study of Mus musculus with 12 samples.

Results

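Commd1 knockout and wildtype bone marrow derived macrophages were compared after 24 h of lipopolysaccharide (LPS). The 4 samples were chosen by their titles, out of 12 in the series. They were 2 knockout samples (mouse 3 and mouse 4) and 2 wildtype samples (mouse 1 and mouse 2), each on its own single-colour Agilent array. Before LPS was added at 10 ng/mL, the marrow cells had been cultured 10 days in GM-CSF at 20 ng/mL, a cytokine that drives the growth of myeloid cells. Each mouse also gave an untreated sample and a 3 h LPS sample. The labels name no strain, age or sex, and they do not say how or in which cells Commd1 had been deleted.

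COMMD1 belongs to the CCC complex, which works with retriever and the WASH complex to return membrane proteins from endosomes to the cell surface, among them copper transporters. In human cells it also helps to degrade RelA, a subunit of NF-kB, and its loss in dogs causes copper toxicosis of the liver. LPS is sensed by TLR4, which switches on NF-kB target genes early and, through interferon beta, a second wave of interferon-stimulated genes. After a day in LPS, macrophages are known to hold many early cytokine and chemokine genes low while interferon-stimulated and antigen presentation genes stay high.

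All levels below are log2 signals relative to the 75th percentile of the array, so a difference of 1 is a 2-fold change. Well above background were 58.6% and 62.7% of probes in knockout samples and 67.9% and 65.0% in wildtype samples. The spike-in controls gave a slope (log2 signal against amount) of 0.869 and 0.842 in knockout and 0.824 and 0.820 in wildtype arrays, and all of them lay outside the range that the scanner software accepts. Knockout replicate 1 had 589 spots marked as outliers (1.01% of spots uneven), against 172 in knockout replicate 2 and 141 and 175 in wildtype. No spot was saturated. The 4 arrays shared 1 slide, with knockout on positions 3 and 4 and wildtype on positions 1 and 2, so the effects of genotype and of position on the slide cannot be told apart. Replicates correlated across genes with r = 0.994 in knockout and 0.996 in wildtype, and genes are not independent replicates. The median SD between replicates was 0.141 in knockout and 0.062 in wildtype.

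The macrophage label was checked against fixed markers, of which 16 of 17 were measured. Adgre1 (F4/80) stood at 6.75 and 6.84 in knockout and 6.88 and 6.80 in wildtype, and Csf1r at 6.90 and 6.92 in knockout and 7.04 and 7.04 in wildtype. The other probe of Adgre1 differed by -0.42 and the other 2 of Csf1r by -0.53 and -0.40. Of these 16 genes, 2 were lower in knockout (Marco and Lyz2, below) and none higher, beside 1.67% lower and 0.718% higher over all genes. The median difference of the 16 was -0.13. Fewer cells of a type and less RNA per cell cannot be told apart in these bulk samples. Of 12 measured dendritic cell markers 0 passed, 8 differences were positive and 4 negative, and the median difference was 0.17. Zbtb46, which had the smallest adjusted p, stood at -1.46 and -1.45 in knockout and -2.32 and -2.24 in wildtype (0.82 ± 0.18, limma adjusted p = 0.0535). Flt3 stood at -5.56 and -5.69 in knockout and -5.50 and -5.32 in wildtype, and Itgax at -0.80 and -0.52 in knockout and 0.35 and 0.28 in wildtype, and levels of different probes are not compared. Among 11 neutrophil markers 0 passed and the median difference was -0.60, but -0.26 with normexp background and -0.90 with only probes detected on all 4 arrays. Ngp stood at -5.25 and -5.54 in knockout and -3.61 and -2.92 in wildtype, and S100a8 at -2.70 and -2.38 in knockout and -1.15 and -1.62 in wildtype, while Elane and Csf3r differed by -0.10 and 0.05. The linear signal summed over the neutrophil list was 44.2 and 44.3 in knockout and 44.4 and 48.9 in wildtype.

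Commd1 itself was read by a probe at mm9 chr11:22856412-22856471, whose 60 bases are shown because the knockout signal rests on them alone.

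Commd1 probe: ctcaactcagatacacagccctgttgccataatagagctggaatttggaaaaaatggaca

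Commd1 stood at -0.41 and 0.06 in knockout samples and 2.89 and 2.85 in wildtype samples. The groups did not overlap, and the level was 8.27-fold lower in knockout (log2 difference -3.05 ± 0.23, SE, n = 2 per group, limma adjusted p = 0.00510). The knockout signal was still well above background on both arrays, and whether the probe lies in the deleted part is not known. Of the 25 measured subunits and partners of the CCC, retriever and WASH complexes, Commd1 was the 1 that passed, and the median of the list was 0.10. Of 56 measured genes within 5 Mb of the Commd1 probe, 1 was higher and 1 lower, beside 0.718% and 1.67% over all genes. Pex13, a peroxisome import factor, was higher (0.49 ± 0.10, adjusted p = 0.0471) and Cep68, a centrosome protein, lower (-0.76 ± 0.12, adjusted p = 0.0251).

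Over the 22973 genes tested, 549 (2.39%) passed an adjusted p of 0.05 in limma's fit over all 12 arrays. Of the 549, 457 were well above background on an array of both genotypes, 66 in wildtype only, 4 in knockout only and 22 in neither. Among 115 called genes with several probes, 21 had another probe whose difference had the opposite sign. In knockout 165 genes (0.718%) were higher and 384 (1.67%) lower. Of these, 43 (0.187%) and 126 (0.548%) had a fitted difference of at least 2-fold. These include genes with only a bound for their fold, and genes not well above background in either genotype. At an unadjusted p of 0.05 the shares were 9.08% higher and 12.6% lower, and for 53.4% of genes the values of the groups did not overlap. The balance of calls differed with level. In the dimmest of 5 equal bins of genes 13 were higher and 94 lower, with a median difference of -0.14, in the next 3 bins by rising level 18, 49 and 45 were higher and 93, 128 and 55 lower, and in the brightest bin 40 were higher and 14 lower, with a median of 0.09. The calls rest on a spread shared by all 6 groups: with the 4 arrays at 24 h alone, which is also the fit within their slide, 0 genes passed and 4284 had an unadjusted p under 0.05. When each array was scaled by its spike-in slope, 68 genes were higher and 65 lower (51.1% higher, against 30.1% in the fit above), and 60 and 64 of these were among the 165 and 384. With normexp background correction 322 were higher and 340 lower (48.6% higher). Without wildtype replicate 1, 11 were higher and 49 lower (18.3% higher), and without wildtype replicate 2, 16 and 72 (18.2% higher). Without knockout replicate 1, 240 were higher and 323 lower (42.6% higher), and without knockout replicate 2, 242 and 549 (30.6% higher).

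**Figure D1:**
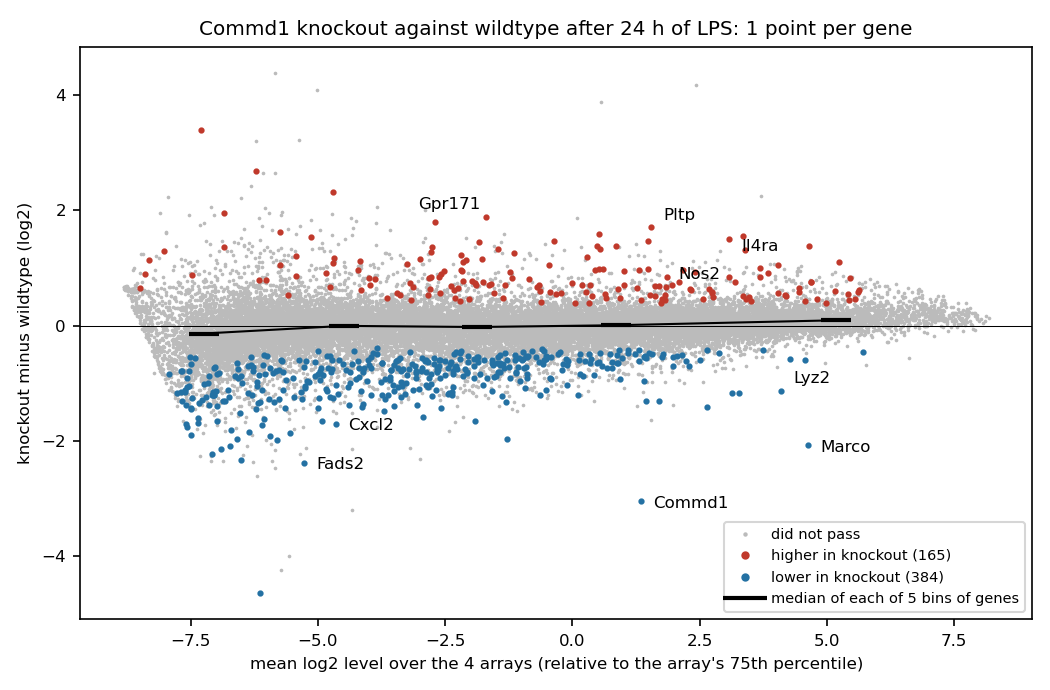
Knockout minus wildtype difference after 24 h of LPS (log2, vertical axis) against the mean level over the 4 arrays (log2 relative to the array's 75th percentile, horizontal axis), 1 point per gene. Red points are the 165 genes higher in knockout, blue points the 384 lower, grey points did not pass, and black bars are medians of the 5 bins of genes by level, which run between -0.14 and 0.09.

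The genes with the largest increases in knockout included several for surface receptors and secreted proteins. Il4ra, the interleukin-4 receptor alpha chain, stood at 3.91 and 3.76 in knockout and 2.29 and 2.36 in wildtype (1.51 ± 0.26, adjusted p = 0.0346), and its other probe differed by 0.89. Pltp, the plasma phospholipid transfer protein, stood at 2.60 and 2.20 in knockout and 0.55 and 0.81 in wildtype (1.72 ± 0.30, adjusted p = 0.0346). In both genes the knockout samples lay above the wildtype samples.

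Gpr171, a G protein coupled receptor, stood at -1.68 and -1.93 in knockout and -3.86 and -3.36 in wildtype (1.81 ± 0.29, adjusted p = 0.0292). This was the largest increase among genes that passed without overlap, matched RefSeq and were detected in both genotypes. Clic5, a chloride intracellular channel protein, stood at 1.44 and 1.19 in knockout and -0.30 and -0.26 in wildtype (1.59 ± 0.16, adjusted p = 0.00871). Ly6c1, a surface antigen of monocytes and endothelium, stood at 5.18 and 5.50 in knockout and 3.92 and 3.99 in wildtype (1.38 ± 0.25, adjusted p = 0.0371), but another probe of it differed by -0.18. Also among the 15 largest increases were Coch (cochlin, 1.62), Smim9 (1.54), Gm4841 (1.48), Gm15056 (1.47), the histone gene H2bu2 (1.45), 9030619P08Rik (1.38), I830077J02Rik (1.37), the meiotic kinetochore gene Meikin (1.36) and the protamine gene Prm1 (1.33). Taar6, a trace amine receptor, and Entpd3, an ectonucleotidase, were not well above background in wildtype and were at least 3.88-fold and 1.95-fold higher in knockout. Taar6 replicates lay far apart, at -5.22 and -4.54 in knockout and -8.39 and -6.71 in wildtype.

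Among the largest decreases were a phagocytic receptor, lipid enzymes and a neutrophil chemokine. Marco, a scavenger receptor that binds bacteria, stood at 3.35 and 3.85 in knockout and 5.59 and 5.75 in wildtype. It was 4.21-fold lower in knockout (-2.07 ± 0.24, adjusted p = 0.0126). Lyz2, which encodes lysozyme of macrophages, stood at 3.46 and 3.60 in knockout and 4.68 and 4.65 in wildtype (-1.13 ± 0.12, adjusted p = 0.00928). Its near copy Lyz1, named after its values were seen, differed by -0.08 ± 0.07 (adjusted p = 0.566). The Lyz2 locus carries Cre in a mouse line widely used to delete genes in myeloid cells, and the labels do not say whether these mice carry it.

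Fads2, the delta-6 fatty acid desaturase, stood at -6.54 and -6.40 in knockout and -4.17 and -3.99 in wildtype (-2.39 ± 0.48, adjusted p = 0.0466). Sort1, the sorting receptor sortilin, stood at -4.63 and -4.25 in knockout and -2.84 and -3.07 in wildtype (-1.49 ± 0.18, adjusted p = 0.0126). Cav1, the coat protein of caveolae, stood at -6.66 and -6.07 in knockout and -4.83 and -5.03 in wildtype (-1.43 ± 0.28, adjusted p = 0.0440). The groups did not overlap in any of these 3 genes. Beside Commd1 and genes described under their lists below, the 15 largest decreases included Gm11538 (-1.87), the chromatin protein gene Hmgb3 (-1.65), the nuclear envelope protein gene Syne2 (-1.64), the nuclear pore gene Nup210 (-1.58), Cyp2j13 (-1.43), Msantd3 (-1.42), the transcription factor gene Atf7 (-1.40) and the spindle gene Aspm (-1.40). Other probes of Nup210, Cyp2j13 and Atf7 differed by 0.70, 0.08 and 0.03, so those calls hold for 1 probe each. Genes not well above background in knockout were led by the vomeronasal receptor gene Vmn1r235 (at least 5.09-fold lower), Rfpl4 (2.28-fold), the cytokinesis kinase gene Cit (1.90-fold), Gm5666 (1.88-fold), 4930407I10Rik (1.80-fold) and the spindle gene Fam83d (1.77-fold), all as lower bounds.

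**Figure D2:**
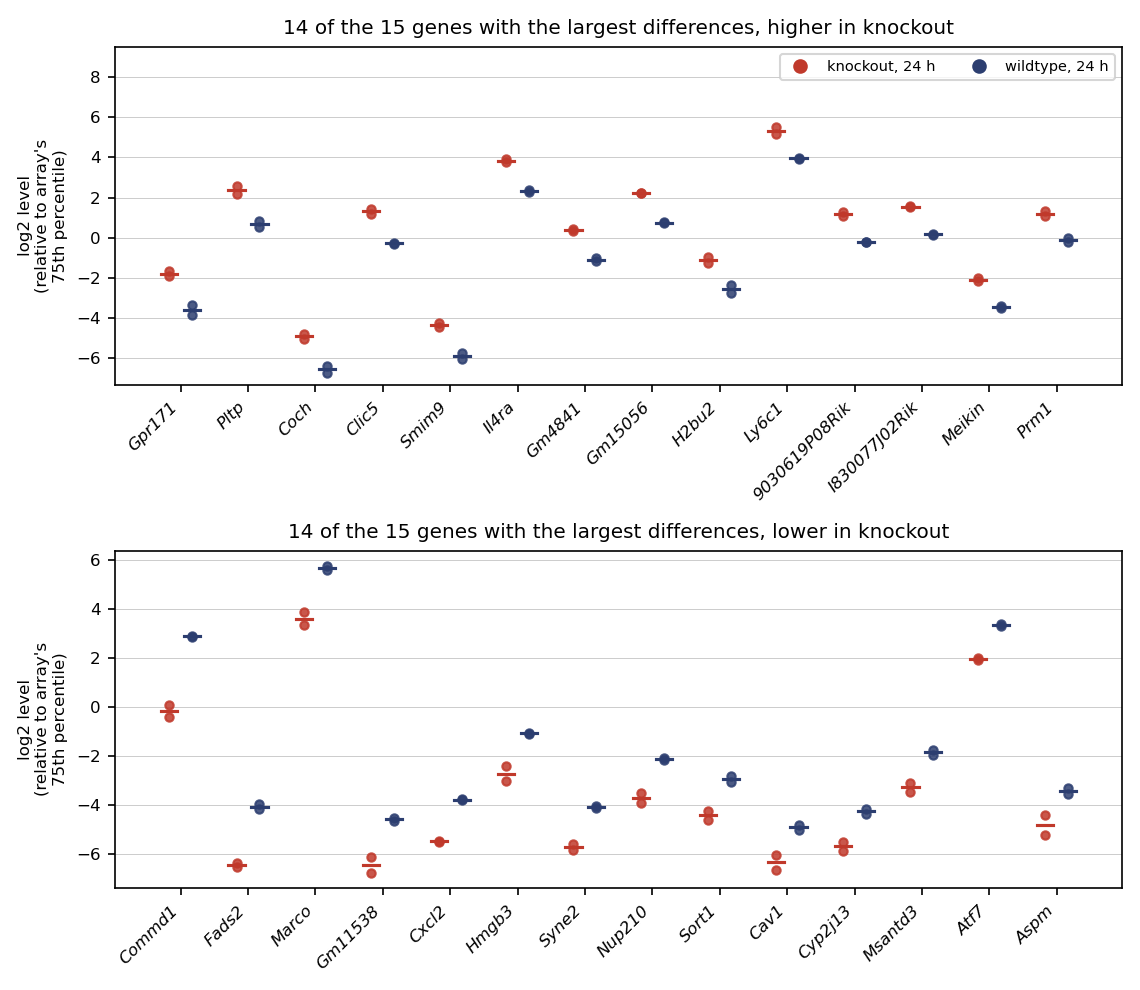
Log2 level relative to the array's 75th percentile (vertical axis) on each array at 24 h for 14 of the 15 genes with the largest increases (upper panel) and 14 of the 15 with the largest decreases in knockout (lower panel), among RefSeq-matched genes that passed and were detected in both genotypes. Red points are the 2 knockout samples and blue points the 2 wildtype samples, bars are their means, and the pairs do not overlap in any gene shown, which the choice of genes required.

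Cxcl1, Cxcl2 and Cxcl3, which encode chemokines that attract neutrophils through CXCR2, passed on the lower side, and the other 9 measured CXC chemokine genes did not pass. Cxcl2 stood at -5.51 and -5.49 in knockout and -3.78 and -3.81 in wildtype, a 3.26-fold lower level in knockout (-1.70 ± 0.23, adjusted p = 0.0183). Cxcl1 stood at -7.92 and -7.21 in knockout and -5.71 and -5.48 in wildtype (adjusted p = 0.0242). It was not well above background in knockout, so it was at least 1.49-fold lower. Cxcl3 passed (adjusted p = 0.0137) but was not well above background on any array at 24 h, so no fold is given. Of 12 CXC chemokine genes measured, 3 were lower and 0 higher, beside 1.67% lower over all genes, and the list median was 0.04. Cxcl10, which is interferon-induced, stood at 7.13 and 7.19 in knockout and 6.58 and 6.52 in wildtype (0.61 ± 0.16, adjusted p = 0.0887). These 3 calls became 2 without knockout replicate 1 and 0 without either wildtype replicate, and in the deposited value table, where dim probes sit at a floor, Cxcl3 differed by 0.16.

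The promoters of the 3 chemokine genes are shown because the genes lie close together on chromosome 5 and carry the same NF-kB motif. They are RefSeq sequence of build GRCm38.p6, plus strand, from 250 bases before to 50 bases after the gene start, at chr5:90890995-90891294 (Cxcl1), chr5:90903649-90903948 (Cxcl2) and chr5:90785851-90786150 (Cxcl3). Capitals mark the 1 motif searched, on both strands, which has the letters shown in capitals but allows any base at the fifth letter.

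Cxcl1: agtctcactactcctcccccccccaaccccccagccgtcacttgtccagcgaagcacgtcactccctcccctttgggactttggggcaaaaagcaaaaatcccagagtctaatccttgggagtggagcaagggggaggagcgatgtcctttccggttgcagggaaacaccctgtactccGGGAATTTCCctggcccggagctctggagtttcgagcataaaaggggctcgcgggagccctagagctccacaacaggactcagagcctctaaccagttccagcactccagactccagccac

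Cxcl2: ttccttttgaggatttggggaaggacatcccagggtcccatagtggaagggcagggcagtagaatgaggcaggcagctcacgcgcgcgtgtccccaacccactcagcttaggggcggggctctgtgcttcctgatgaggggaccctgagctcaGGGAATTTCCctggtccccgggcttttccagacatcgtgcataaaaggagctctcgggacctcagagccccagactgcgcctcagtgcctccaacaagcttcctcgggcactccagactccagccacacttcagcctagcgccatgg

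Cxcl3: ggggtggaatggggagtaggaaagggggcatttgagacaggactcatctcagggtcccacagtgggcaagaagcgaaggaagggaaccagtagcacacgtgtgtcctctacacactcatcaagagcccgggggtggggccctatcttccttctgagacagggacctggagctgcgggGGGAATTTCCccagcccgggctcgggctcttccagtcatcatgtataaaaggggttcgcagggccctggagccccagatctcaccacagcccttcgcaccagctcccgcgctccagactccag

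The match began 71, 97 and 73 bases before the start of Cxcl1, Cxcl2 and Cxcl3, and read GGGAATTTCC in each. Of 32851 promoters of that length, 135 (0.411%) held the motif. Of the 9 measured CXC chemokines with a promoter in the table, these 3 held it. A match is a run of letters and not a measured binding site, and its bearing on the differences at 24 h was not tested. After 3 h of LPS the genotype differences of Cxcl1, Cxcl2 and Cxcl3 were -0.22, 0.08 and 0.04, none of which passed.

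The NF-kB family and its feedback inhibitors held no call among 29 measured genes, with 7 at an unadjusted p under 0.05 on the higher side and 1 on the lower side (9.08% and 12.6% of all genes), and a median difference of 0.10. Rela, the NF-kB subunit whose turnover COMMD1 promotes, stood at 5.05 and 5.17 in knockout and 4.99 and 4.92 in wildtype (0.15 ± 0.11, adjusted p = 0.480). Tnip1, an inhibitor of the pathway, differed by 0.03 ± 0.10 (adjusted p = 0.913). In the TLR4 pathway list of 27 genes, Tlr3, the receptor for double-stranded RNA, was higher (0.56 ± 0.11, adjusted p = 0.0430) and Irak3, an inhibitor of TLR signalling, lower (-0.63 ± 0.13, adjusted p = 0.0483). Over all genes 0.718% passed on the higher side and 1.67% on the lower side.

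Cytokine genes held 1 call in each direction among 29 measured, beside 0.718% higher and 1.67% lower over all genes. Il15, a growth factor of natural killer and memory T cells, stood at 2.51 and 2.43 in knockout and 1.80 and 1.65 in wildtype (0.75 ± 0.12, adjusted p = 0.0286). Inhba, which encodes activin A, stood at -2.74 and -3.03 in knockout and -1.83 and -1.82 in wildtype (-1.06 ± 0.16, adjusted p = 0.0239). The list median was 0.13. Tnf, Il6 and Il10, named after their values were seen as the cytokines most often measured after LPS, did not pass. Tnf differed by -0.42 ± 0.26 (adjusted p = 0.390), Il6 by 0.43 ± 0.20 (adjusted p = 0.251) and Il10 by 0.72 ± 0.17 (adjusted p = 0.0633). Among 13 CC chemokines, Ccl6 was lower (-0.46 ± 0.09, adjusted p = 0.0486).

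Among receptors for cytokines and chemokines, 4 of 38 measured genes were higher and 0 lower, beside 0.718% higher over all genes, and the list median was 0.30. Besides Il4ra they were Il12rb1, a subunit of the interleukin-12 and interleukin-23 receptors, Il2ra, the interleukin-2 receptor alpha chain, and Ccr2, the receptor that draws monocytes into tissue. Il12rb1 stood at 4.27 and 4.33 in knockout and 3.33 and 3.46 in wildtype (0.91 ± 0.13, adjusted p = 0.0213). Il2ra stood at -3.45 and -3.74 in knockout and -4.74 and -4.72 in wildtype (1.13 ± 0.21, adjusted p = 0.0377). Ccr2 stood at -2.20 and -2.19 in knockout and -3.14 and -2.92 in wildtype (0.84 ± 0.13, adjusted p = 0.0264). In untreated cells 10 genes of this list were higher and 1 lower, beside 3.77% and 3.07% over all genes. The 4 calls became 1 without knockout replicate 1 or with the spike-in slope, and 0 without either wildtype replicate.

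Interferon-induced genes had mostly small positive differences, and Socs1 and Tgtp1 passed. Socs1, the inhibitor of JAK and STAT signalling, stood at 4.17 and 4.20 in knockout and 3.20 and 3.16 in wildtype (1.00 ± 0.10, adjusted p = 0.00927). All 16 measured GTPases of the GBP and IRG families, which attack vacuoles of intracellular microbes, had a positive difference, with a median of 0.43. Over all genes 11596 differences were positive and 11376 negative, and in the brightest bin of genes the median was 0.09. Of the 16 GTPases Tgtp1 passed, beside 0.718% higher over all genes. It stood at 1.19 and 0.67 in knockout and -0.04 and -0.05 in wildtype (0.97 ± 0.19, adjusted p = 0.0440). Its probe was not shown to tell it from its near copy. Among 33 antiviral interferon-stimulated genes 0 passed, 13 had an unadjusted p under 0.05 on the higher side (9.08% of all genes), and the median was 0.28. Isg15 and Bst2, the brightest of them, differed by 0.22 ± 0.16 and 0.22 ± 0.10 (adjusted p = 0.454 and 0.247). With the spike-in slope the antiviral median was 0.07 and that of the GTPases 0.24, and Isg15 and Bst2 then differed by -0.09 and -0.09. In untreated cells 15 antiviral genes and 11 GTPases were higher and 0 lower, beside 3.77% and 3.07% over all genes. The untreated medians were 0.58 (antiviral) and 0.84 (GTPases).

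Antigen presentation genes held 1 call, on the higher side, where 0.718% of all genes passed. Psmb9, a subunit of the immunoproteasome, was higher (0.45 ± 0.09, adjusted p = 0.0424), the 1 call among 16 genes of MHC class I presentation. Of 19 genes of MHC class II and costimulation 0 passed, 12 had an unadjusted p under 0.05 on the higher side (9.08% of all genes), and the median was 0.35. In untreated cells 10 genes of this list were higher and 0 lower, beside 3.77% and 3.07% over all genes, and the median was 0.63. Cd274, the checkpoint ligand PD-L1, stood at 5.87 and 6.17 in knockout and 5.32 and 5.42 in wildtype (0.65 ± 0.15, adjusted p = 0.0601), and the protease gene Ctss differed by 0.08 ± 0.08 (adjusted p = 0.568). Casp4, the cytosolic LPS sensor caspase-11 of mice, was higher (0.54 ± 0.11, adjusted p = 0.0466), the 1 call among 16 inflammasome genes. Nos2, the inducible nitric oxide synthase, stood at 2.14 and 2.20 in knockout and 1.46 and 1.54 in wildtype (0.67 ± 0.09, adjusted p = 0.0183). Slc7a2, an arginine transporter, was lower (-0.74 ± 0.13, adjusted p = 0.0374).

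Of 24 measured genes of cholesterol synthesis and uptake, 5 passed on the lower side and 0 on the higher side, beside 1.67% and 0.718% over all genes, and the list median was -0.63, beside 0.00 over all genes. Sqle, squalene epoxidase, stood at 0.69 and 0.91 in knockout and 2.21 and 2.02 in wildtype (-1.31 ± 0.20, adjusted p = 0.0246). Each knockout sample lay more than 1 log2 unit below each wildtype sample. Cyp51, lanosterol demethylase, was lower by -1.03 ± 0.18 (adjusted p = 0.0364) and Insig1, which holds the SREBP precursors in the endoplasmic reticulum, by -0.74 ± 0.15 (adjusted p = 0.0484).

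Of the other genes of that list, 10 had an unadjusted p under 0.05 on the lower side (12.6% of all genes). Of all 24 differences 22 were negative, against 11376 of 22975 over all genes. Srebf2, the transcription factor of the pathway, differed by 0.31, the largest positive value of the list (adjusted p = 0.103). The value of Sc5d rests on 1 knockout array, because its spot on the other was marked as an outlier. In untreated cells 11 genes of the list were lower and 0 higher (3.07% lower over all genes), and the median was -0.60. The 5 calls at 24 h became 2 with the spike-in slope, 4 without knockout replicate 2, 1 without knockout replicate 1 or wildtype replicate 2, and 0 without wildtype replicate 1, while the median lay between -0.71 and -0.50 under all alternatives run. Fasn, fatty acid synthase, was not well above background in knockout and was at least 1.13-fold lower (adjusted p = 0.0466).

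**Figure D3:**
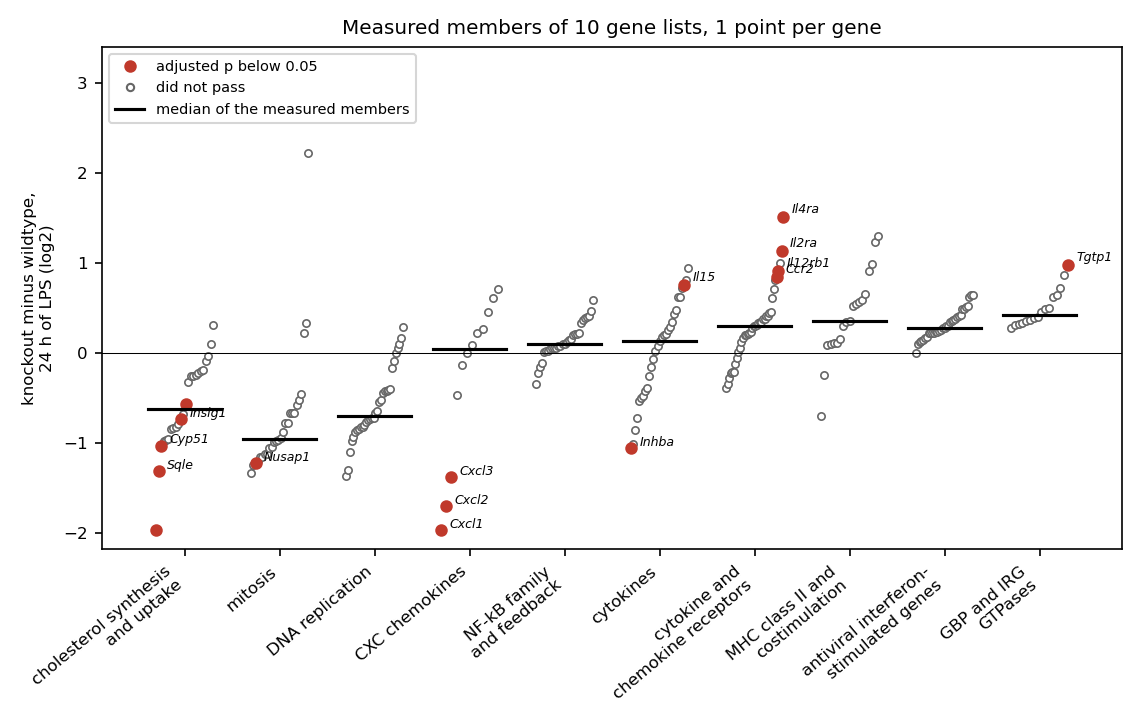
Knockout minus wildtype difference after 24 h of LPS (log2, vertical axis) for every measured member of 10 gene lists, 1 point per gene. Filled red points, most with their names, passed an adjusted p of 0.05, open points did not, and black lines are list medians, which run from -0.96 for mitosis to 0.43 for GBP and IRG GTPases. Cxcl1 and Cxcl3 are drawn at their fitted values although neither was well above background in knockout, nor Cxcl3 in wildtype.

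Cell cycle genes had the most negative median of the lists. Of 26 mitotic genes, Nusap1, a spindle protein, passed on the lower side, beside 1.67% over all genes. It stood at -2.28 and -1.71 in knockout and -0.82 and -0.73 in wildtype (-1.22 ± 0.23, adjusted p = 0.0400). The list median was -0.96, and 23 differences were negative and 3 positive, between -1.33 and 2.22. Over all genes 11376 differences were negative and 11596 positive. An unadjusted p under 0.05 was held by 21 genes on the lower side and 1 on the higher side, beside 12.6% and 9.08% of all genes. The knockout replicates lay apart: the median was -0.65 without replicate 1 and -1.22 without replicate 2, and 0 genes and 10 genes of the list passed. The value of Cenpa rests on 1 knockout array. Of 32 DNA replication and nucleotide genes 0 passed, 14 had an unadjusted p under 0.05 on the lower side and 0 on the higher side (12.6% and 9.08% of all genes), and the median was -0.70, or -0.46 without knockout replicate 1. The brightest members, Ung and Pcna, differed by 0.29 ± 0.14 and 0.10 ± 0.23 (adjusted p = 0.267 and 0.844). In untreated cells the mitotic list had a median of -0.29 with 1 gene higher and 0 lower, and the DNA replication list a median of -0.80 with 1 higher and 4 lower. Over all genes 3.77% were higher and 3.07% lower in untreated knockout cells.

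Single genes passed in the remaining lists. Axl, a receptor for dying cells, was higher (0.69 ± 0.12, adjusted p = 0.0316). So was Mgl2, a galactose-binding lectin of alternatively activated macrophages (0.58 ± 0.09, adjusted p = 0.0246). C5ar1, the receptor of complement C5a, stood at 0.70 and 1.19 in knockout and 1.97 and 1.82 in wildtype (-0.95 ± 0.16, adjusted p = 0.0304). Among matrix proteases Mmp25 was higher (1.16 ± 0.22, adjusted p = 0.0436), and Mmp9 (-1.38 ± 0.28, adjusted p = 0.0460) and Adamts4 (-0.84 ± 0.16, adjusted p = 0.0440) were lower. Dusp2, a phosphatase that ends MAP kinase signals, was higher (1.18 ± 0.19, adjusted p = 0.0286), and Nr4a2, a nuclear receptor induced early, lower (-0.60 ± 0.10, adjusted p = 0.0292).

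Sco1, a copper chaperone of cytochrome c oxidase, was higher, the 1 call among 23 copper genes (0.60 ± 0.09, adjusted p = 0.0239), beside 0.718% higher over all genes. Gclm, a subunit of the first enzyme of glutathione synthesis, was lower (-0.63 ± 0.13, adjusted p = 0.0460), as was Hyou1, a chaperone of the endoplasmic reticulum (-0.93 ± 0.14, adjusted p = 0.0251). Clec5a passed but was not well above background on any array at 24 h, so it is given without a fold. Lists for hypoxia and glycolysis, oxidative phosphorylation, the citric acid cycle, lysosomes, lipid mediators, heat shock, cell death and iron held 0 calls. The 16 brightest members of those 8 lists differed by -0.25 to 0.31, with adjusted p between 0.153 and 0.982. Among marker lists of other cells, that of osteoclasts held 1 call (Mmp9), and those of dendritic cells, stroma, mast cells and other granulocytes, megakaryocytes, erythroid cells and lymphocytes held 0. The osteoclast call was 1 of 9 measured genes, beside 1.67% lower over all genes.

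**Figure D4:**
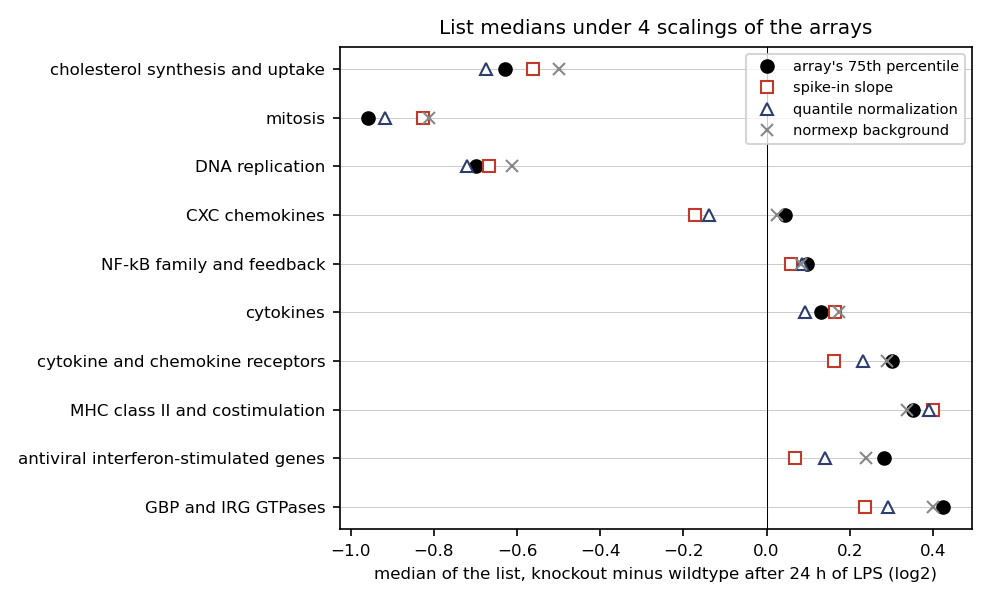
Median knockout minus wildtype difference after 24 h of LPS (log2, horizontal axis) of 10 gene lists (vertical axis) under 4 ways of scaling the arrays. Black points are the scaling used in the text, open squares the spike-in slope, triangles quantile normalization and crosses normexp background; the median of the CXC list lies on either side of 0 (0.04 as used in the text, -0.17 with the spike-in slope and -0.14 with quantile normalization), and the other 9 medians keep their sign.

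Whether the genotype difference at 24 h was that of untreated cells was tested as the difference of the differences. The arrays of each time lay on a slide of their own, with each genotype on the same positions every time. A shift between times therefore cannot be told apart from an effect of position that differs between slides. The test passed for 75 genes (0.326% of those tested), 35 (0.152%) in the positive and 40 (0.174%) in the negative direction. Of these 75, 53 differed between genotypes in untreated cells, 34 at 24 h, and in 60 the difference had opposite signs at the 2 times. Genes picked for a large change between the 2 times are more likely to have opposite signs or a call at either time. These counts are therefore no separate result. The samples of a mouse share their marrow, and with mouse as a fixed block within genotype, a setting added after the data were seen, 151 genes passed, 55 of them among the 75. Without wildtype replicate 1 the count was 15, without wildtype replicate 2 it was 39, without knockout replicate 1 it was 240 and without knockout replicate 2 it was 195. Of the 549 genes called at 24 h, 122 were also called with the same sign in untreated cells and 54 with the same sign after 3 h of LPS, where 6.84% and 1.68% of all genes were called.

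Il1b, which encodes interleukin-1 beta, showed the largest such shift among RefSeq-matched genes detected on at least 1 array of each of the 4 groups. At 24 h it stood at -0.27 and 0.28 in knockout and 0.46 and 0.54 in wildtype (-0.50 ± 0.35, adjusted p = 0.448). In untreated cells it stood at -0.17 and -1.39 in knockout and -4.80 and -5.14 in wildtype (4.19 ± 0.35, adjusted p = 0.00222). The difference of differences was -4.69 ± 0.50 (adjusted p = 0.0279). Both knockout samples lay more than 3 log2 units above both wildtype samples before LPS, and both lay below them after 24 h by a difference that did not pass. The shift was also negative for C3, the central complement protein (-1.90 ± 0.24, adjusted p = 0.0395), the stress gene Ier3 (-1.88 ± 0.28, adjusted p = 0.0481), Cxcl10 (-1.79 ± 0.23, adjusted p = 0.0395) and Cd55, which protects cells from complement (-1.72 ± 0.23, adjusted p = 0.0396). Each of these 4 genes was higher in untreated knockout cells, and at 24 h their differences were 0.17 (C3), -0.09 (Ier3), 0.61 (Cxcl10) and -0.16 (Cd55), none of which passed.

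Pilrb1, an activating receptor of the paired PILR family, changed sides: it was higher in untreated knockout cells (1.14 ± 0.15, adjusted p = 0.00884) and lower in knockout cells at 24 h (-0.73 ± 0.15, adjusted p = 0.0460), a shift of -1.87 ± 0.21 (adjusted p = 0.0299). Cd200, a ligand that restrains myeloid cells, moved from the other side. At 24 h it stood at 0.76 and 0.97 in knockout and 0.86 and 0.95 in wildtype, and in untreated cells at -4.37 and -3.97 in knockout and -1.64 and -1.62 in wildtype, a shift of 2.51 ± 0.23 (adjusted p = 0.0201). The serine protease gene Prss46 (2.11 ± 0.19, adjusted p = 0.0201) and Fabp4, a fatty acid binding protein (1.65 ± 0.24, adjusted p = 0.0453), were likewise lower in untreated knockout cells, and at 24 h their differences were 0.29 and 0.06. Clic5 (1.74 ± 0.23, adjusted p = 0.0395), Asph (1.64 ± 0.17, adjusted p = 0.0279) and AA467197 (1.57 ± 0.23, adjusted p = 0.0470) were among those higher at 24 h. With mouse as a fixed block 11 of these 12 genes still passed, and without wildtype replicate 1 and 2 it was 2 and 5.

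Against the genotype difference after 3 h of LPS, 1 gene (0.00435%) had a different one at 24 h, Syne2. It stood at -5.87 and -5.62 in knockout and -4.15 and -4.05 in wildtype at 24 h, and its genotype difference was 0.27 ± 0.12 at 3 h, a shift of -1.92 ± 0.17 (adjusted p = 0.0493). Its other probe differed by -0.29 between genotypes at 24 h, against -1.64 for the probe used, so the call holds for 1 probe. With mouse as a fixed block 0 genes passed, and leaving out 1 array at 24 h gave 2 to 197 genes.

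**Figure D5:**
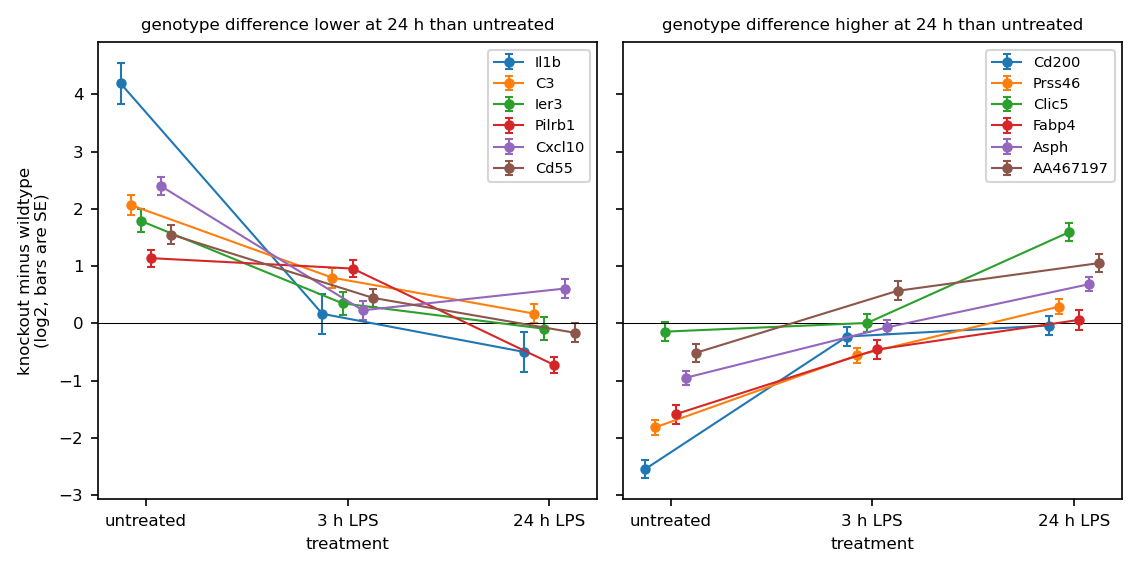
Knockout minus wildtype difference (log2, vertical axis, bars are standard errors) in untreated cells and after 3 h and 24 h of LPS (horizontal axis) for the 6 genes per direction with the largest shifts that passed between untreated cells and 24 h, among RefSeq-matched genes detected on at least 1 array of each of the 4 groups. The left panel holds the 6 genes whose difference was lower at 24 h than in untreated cells, led by Il1b (4.19 untreated and -0.50 at 24 h), and the right panel the 6 whose difference was higher, led by Cd200 (-2.54 untreated and -0.04 at 24 h).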

How the data were processed

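Total RNA was hybridised to single-colour (Cy3) Agilent arrays, 12 in all, 1 per mouse and time, with mm9 probe positions per the file headers. The deposited scanner files hold intensity values (processed signals) that the authors obtained with Feature Extraction 10.7.3.1, per the submitters' processing notes. The deposited value table holds log2 values, which equalled log2 processed signal minus a constant per array for 99.4% to 99.9% of detected probes within 0.01. From the scanner files, log2 processed signal minus the array's 75th percentile was computed, outlier spots (per array) were left out and spots of a probe averaged. Probes that cleared the scanner software's background test on each array of 1 or more groups were kept (28426 of 39429), and the brightest probe stood for a gene (22975 genes). Names came from RefSeq (GRCm38.p6) by accession, symbol or synonym for 78.7% of probes, and otherwise from the files. Column totals were not used as depth, and the number of arrays limits the precision.

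Group means over the 12 arrays were fitted with limma 3.58.1 in R 4.3.3 (6 residual degrees of freedom), with Benjamini-Hochberg adjusted p under 0.05 as the threshold for every adjusted p in the text. A gene dim on both arrays of 1 group has only a bound for its fold. Tables and plots used Python 3.11.15 with pandas 2.3.3, numpy 2.4.6 and matplotlib 3.10.9. The procedure was tested on simulated data. The members and lists were chosen with earlier results of these data known. Genes were named by rule: Commd1, the 15 largest changes per direction among called, RefSeq-matched genes detected in both genotypes, up to 6 per direction with bounds, up to 6 called members of each list (the 2 brightest where none was called), 6 per direction for each difference of differences, and markers. A few genes that the rule takes are not reported here, though counts and list medians include them. Each mouse gave 3 samples, and the mice of the 2 genotypes differ, so replicate numbers do not pair the genotypes. Deviations from group means of same-numbered knockout and wildtype samples correlated at 0.26, 0.08 and -0.01 (untreated, 3 h, 24 h), and those of a mouse at 24 h with its other times at 0.12 to 0.15.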

Additional observations from a re-analysis of the deposited data

Results flagged for a closer look

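For 15 genes named in the text the genotype difference at 24 h differed from that in untreated cells, by limma's test of the difference of differences. The shift, as the 24 h difference minus the untreated difference on the log2 scale, was negative for Il1b (-4.69), C3 (-1.90), Ier3 (-1.88), Pilrb1 (-1.87), Cxcl10 (-1.79), Cd55 (-1.72), Syne2 (-1.22), Vmn1r235 (-4.83) and Cxcl3 (-1.92). Vmn1r235 and Cxcl3 were not well above background in untreated cells, so their shifts are fitted values and no folds. The shift was positive for Cd200 (2.51), Prss46 (2.11), Clic5 (1.74), Fabp4 (1.65), Asph (1.64), and AA467197 (1.57). Against the genotype difference after 3 h of LPS, Syne2 shifted by -1.92.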

How the results depend on the processing

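Commd1 stayed lower under every alternative run (-3.09 to -2.93, and -3.28 to -2.81 with 1 array at 24 h left out) and missed the threshold only when the 4 arrays at 24 h were fitted alone (-3.05, adjusted p = 0.104). In the order higher and lower in knockout, the counts of 165 and 384 were 0 and 0 with those 4 arrays alone, 329 and 769 with the replicate block, 322 and 340 with normexp background, 144 and 242 with quantile normalization, 198 and 642 with the percentile over probes detected on all arrays, 33 and 74 with no filter on dim probes, 343 and 577 with only probes detected on all 4 arrays, 367 and 680 with an intensity trend, and 68 and 65 with the spike-in slope. Leaving out 1 array at 24 h gave 11 to 242 higher and 49 to 549 lower. The 75 genes whose difference shifted from untreated cells became 2 with only the groups compared, 167 with the replicate block, 197 with mouse as a random block, 151 with mouse as a fixed block, 252 with normexp, 0 with no filter (3396 at an unadjusted p under 0.05), 250 with only probes detected on all 4 arrays, 278 with the trend, 181 with the deposited value table and 15 to 240 with 1 array left out. The 1 gene that shifted from 3 h became 0 with only the groups compared, the replicate block, mouse as a fixed block, no filter, the mean over probes and the spike-in slope, 14 with mouse as a random block, 10 with normexp, 13 with quantile normalization, 30 with only probes detected on all 4 arrays, 2 with outlier spots kept, 27 with the trend, 34 with the value table and 2 to 197 with 1 array left out. The replicate block raised the mitotic genes called to 19 from 1, although replicate numbers share no animal across genotypes.

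With the spike-in slope the sign turned for Rela (-0.0513), Tnip1 (-0.178), Isg15 (-0.0884), Bst2 (-0.0919), Ung (-0.0180), Pcna (-0.142) and Ctss (-0.208), none of which had passed. With quantile normalization it turned for Tnip1 (-0.123), Pcna (-0.0651) and Ctss (-0.0606), with normexp for Tnip1 (-0.0155), Clec5a (0.0492) and Fasn (0.00133), and with the percentile over probes detected on all arrays for Tnip1 (-0.0153). Without knockout replicate 2 it turned for Tnip1 and Pcna, whose values ran from -0.0692 to 0.121 and from -0.0302 to 0.226 with 1 array left out. In the value table Clec5a (0.167) and Cxcl3 (0.163) turned, and with only probes detected on all 4 arrays Cyp2j13 (0.0818), for which another probe then stands. The cause was not tested for the others. Of the 75 called genes that the naming rule takes at 24 h, 28 still passed with the spike-in slope, 50 with quantile normalization, 24 with no filter, and 10, 17, 37 and 52 without wildtype replicate 1, wildtype replicate 2, knockout replicate 1 and knockout replicate 2.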

Other observations

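Gene families outside the lists, chosen after their values were seen and given without a test, also held several calls, beside 0.718% of all genes higher and 1.67% lower at 24 h. Of 11 measured Ly6 genes on chromosome 15, which encode surface antigens of leukocytes, 3 were higher in knockout (Ly6c1, Ly6a and 9030619P08Rik) and the median difference was 0.65. Ly6a stood at 3.99 and 4.10 in knockout and 2.75 and 2.72 in wildtype (1.31, limma adjusted p = 0.0332). All 3 measured genes of the paired PILR receptors were lower at 24 h. Pilra, the inhibitory member, stood at 0.98 and 1.11 in knockout and 2.50 and 2.21 in wildtype (-1.31, adjusted p = 0.00702). Of 5 measured Cyp2j genes 3 were lower (Cyp2j13, Cyp2j6 and Cyp2j8). The copies within each of these families are alike in sequence, and whether the probes tell them apart was not tested.

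Genes of ribosome biogenesis (symbols starting with Utp, Nop, Noc, Rrp or Polr1) had 6 of 35 lower and 0 higher, beside 1.67% lower over all genes, with a median of -0.33. Utp20 differed by -0.88 and Polr1e by -0.82. Of 18 genes of nucleotide synthesis 5 were lower and 0 higher, with a median of -0.50, and Ctps, the enzyme that makes CTP, differed by -1.21. The protamine gene Prm1, higher in knockout, is read by a probe 12499 bases from that of Socs1, also higher, on chromosome 16 in mm9. Between them Tnp2 differed by 1.10 (adjusted p = 0.168), Prm3 by -0.16 and Prm2 by -0.08.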
